A study of Mus musculus with 10 samples.

Results

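The H3K27me3 peaks of mouse blood-forming mesoderm were compared between cells with functional SCL and cells with a non-functional SCL. All peaks of the 2 H3K27me3 lists were used, 11345 in WT and 10881 in Delta, out of 70826 peaks in the 8 peak lists of the series. Chromatin came from cells sorted for mCherry out of embryoid bodies (EBs) at day 4, that is, aggregates in which embryonic stem (ES) cells differentiate. WT cells (label Scl wt) carried the Scl:mCherry reporter, which leaves SCL functional. Delta cells (label Scl d/d) carried the same reporter on SCL without its basic helix-loop-helix domain, the part that binds DNA. The strain labels, C57Bl/6 X Sv130 for WT and C57Bl/6 X Sv129 for Delta, count on from sample to sample over most of the series, and per the study's methods the Delta line was derived from the reporter line, so no strain difference is read from them. In both groups cells were gated on mCherry, which reports transcription of *Scl* (also called *Tal1*), and both received *Drosophila* S2 cells as a spike-in before ChIP. The sort takes whichever cells transcribe *Scl*, so a mark on fewer cells and a weaker mark in each cell cannot be told apart. There was 1 library per genotype, so every difference given here is between 2 libraries and none has a replicate check or a test. More or fewer bases covered means wider or narrower peak calls, which were not scaled to the spike-in, and not a measured level of the mark.

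H3K27me3, trimethylation of lysine 27 on histone H3, is placed by Polycomb repressive complex 2 (PRC2) through its EZH1 or EZH2 subunit, and it spreads in domains around the CpG-rich promoters of silent developmental genes. In ES cells and their early progeny many of these promoters also carry H3K4me3, a mark of promoters poised for or in use. H3K27ac marks active promoters and enhancers and occupies the same lysine as H3K27me3. H2AK119ub is the mark of Polycomb repressive complex 1 (PRC1).

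The promoters of 5 genes are shown to give the kind of sequence on which the calls below were made. They are the bases just upstream of a transcription start site (TSS), read 5′ to 3′ on the strand of the gene from mm9, with every CG dinucleotide in capitals, and none lies in an annotated exon. *Mme* (chr3:63099594-63099793, plus strand) and *Cdh20* (chr1:106664906-106665105, plus strand) were covered by a peak in WT only. *Rnd2* (chr11:101329289-101329488, plus strand) was covered in Delta only. *Esam* (chr9:37335463-37335662, plus strand) and *Stat5b* (chr11:100712039-100712238, minus strand) had a peak near the TSS in both genotypes, with far more bases covered in Delta.
Mme: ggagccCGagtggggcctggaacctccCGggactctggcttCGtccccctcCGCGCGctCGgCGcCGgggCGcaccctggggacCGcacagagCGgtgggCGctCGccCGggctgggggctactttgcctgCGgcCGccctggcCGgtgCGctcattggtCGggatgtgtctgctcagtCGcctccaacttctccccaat
Cdh20: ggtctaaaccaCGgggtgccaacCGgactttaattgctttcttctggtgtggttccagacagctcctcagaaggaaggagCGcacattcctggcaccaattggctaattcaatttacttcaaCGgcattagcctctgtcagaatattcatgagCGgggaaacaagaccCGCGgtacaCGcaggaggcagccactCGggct
Rnd2: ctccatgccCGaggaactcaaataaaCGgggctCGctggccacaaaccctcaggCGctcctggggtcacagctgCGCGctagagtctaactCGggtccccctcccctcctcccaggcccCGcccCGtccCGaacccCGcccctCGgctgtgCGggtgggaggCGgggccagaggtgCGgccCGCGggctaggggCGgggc
Esam: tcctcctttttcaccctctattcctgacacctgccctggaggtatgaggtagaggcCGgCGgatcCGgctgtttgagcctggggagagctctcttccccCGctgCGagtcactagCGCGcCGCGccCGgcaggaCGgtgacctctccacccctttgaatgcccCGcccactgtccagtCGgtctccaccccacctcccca
Stat5b: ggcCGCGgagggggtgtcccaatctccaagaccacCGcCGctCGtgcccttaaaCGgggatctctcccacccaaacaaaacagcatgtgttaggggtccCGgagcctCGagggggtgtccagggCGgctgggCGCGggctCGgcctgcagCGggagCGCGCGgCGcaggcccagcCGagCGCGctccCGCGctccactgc
These 200 bases held 21 CG dinucleotides in *Mme*, 9 in *Cdh20*, 18 in *Rnd2*, 13 in *Esam* and 22 in *Stat5b*. Over all 22359 protein-coding genes the median in the 200 bases before the 5′ end was 7. The peak of *Esam* covered 112 of its 200 bases in WT and all of them in Delta. The stretch of *Stat5b* was uncovered in WT and fully covered in Delta.

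Before genotypes were compared, the mark was checked against genes that should carry or lack it. A gene was called if any of its protein-coding TSSs lay no more than 2500 bp from a peak. *Hox* genes, the textbook Polycomb targets, were called in all 40 of 40 gene entries in both genotypes, and neural transcription factor genes in 29 of 29. Olfactory receptor genes, which lack CpG-rich promoters, were called in 3 of 1087 in each genotype. Ribosomal protein genes, which every cell transcribes, went against the label. Of these 79 genes 67 were called in WT and 58 in Delta, and 73 carried H3K27ac at the same windows in at least 1 genotype. Their peaks were short, with a median length of 821 bp in WT and 598.5 bp in Delta, against 112597 bp and 116140 bp for the peaks at *Hox* genes. The lists therefore held long peaks at silent genes beside short peaks at active promoters. Because of this, results are given for all genes and also without the genes that had an H3K27ac peak at the TSS in either genotype, a split made after the values were seen.

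Among marker genes of the sorted cells, *Etv2* had no H3K27me3 at its TSS in either genotype. *Kdr*, which encodes FLK1, had 306 bp covered in WT and 654 bp in Delta. *Lmo2*, a partner of SCL, had 850 bp and 1272 bp. *Pdgfra*, a marker of cardiac and paraxial mesoderm, had 7133 bp and 7050 bp, while the −log10 q of its peak was 13.9 in WT and 6.82 in Delta. *Tal1*, whose transcription the sort reads, had 1800 bp and 4785 bp. The windows of *Etv2*, *Kdr* and *Lmo2* were thus uncovered or thinly covered and that of *Pdgfra* widely covered in both libraries, while *Tal1* lay between them and other blood genes, such as *Gata2* and *Hhex*, were widely covered, as given below. *Tbx6*, *Msgn1* and *Meox1* of paraxial mesoderm, *Tnnt2* of heart muscle, and *Nanog* and *Zfp42* of undifferentiated cells had no peak in either list, while *Pou5f1* had 1654 bp in WT against 230 bp in Delta.

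The lists differed most in their shortest peaks. Of the WT peaks 3008 (26.5%, exact 95% binomial interval 25.7 to 27.3) were not overlapped by any Delta peak, and of the Delta peaks 2691 (24.7%, 23.9 to 25.6) by no WT peak. These intervals cover counting error only. The share of peaks with a counterpart climbed with length, from 38.3% of WT peaks of up to 500 bp to 81.5% at 1001 to 2000 bp and 97.9% at 2001 to 5000 bp. All 413 WT peaks over 10000 bp and all 448 such Delta peaks had a counterpart. Peaks without a counterpart were also weak: the median −log10 q was 2.17 in WT and 2.30 in Delta, against 4.39 and 4.68 for those with a counterpart. When only peaks with a −log10 q of at least 3 were counted, 9.64% of WT and 8.88% of Delta peaks had none.

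**Figure D1:**
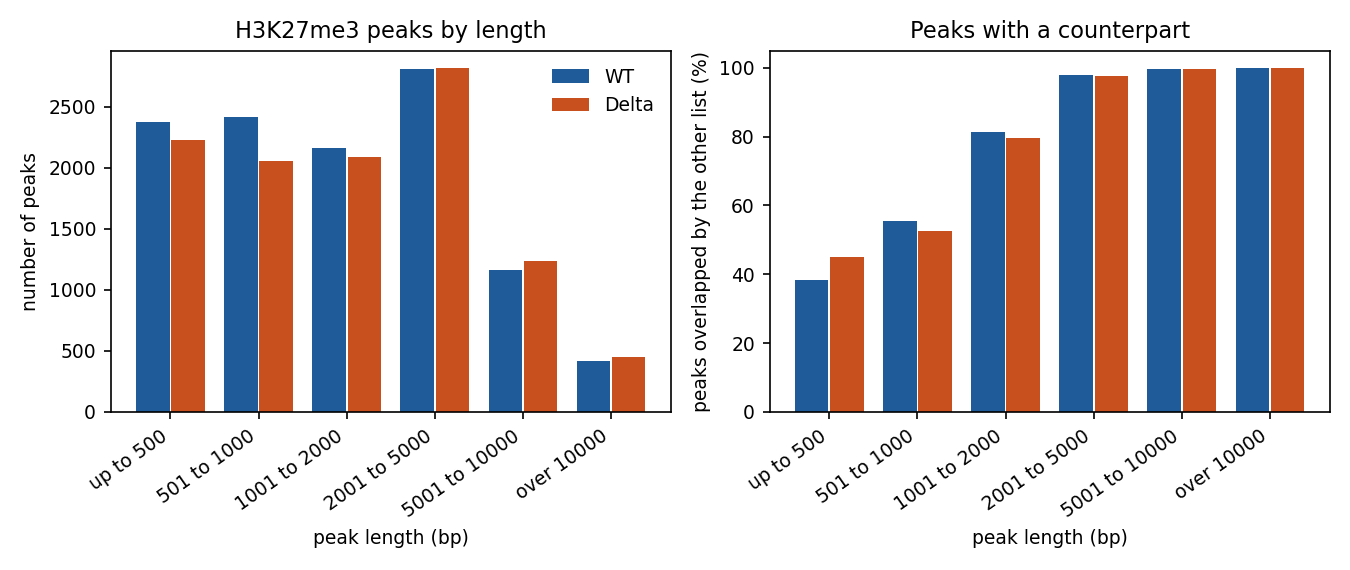
The left panel gives the number of H3K27me3 peaks in each class of peak length (bp) and the right panel the percentage of them overlapped by at least 1 bp of a peak of the other genotype, with WT in blue and Delta in orange. WT had more peaks than Delta up to 2000 bp, Delta had more above that, and the share with a counterpart went from 38.3% (WT) and 45.1% (Delta) in the shortest class to 100% in the longest.

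Most bases that belonged to 1 genotype only lay in peaks that overlapped a peak of the other genotype rather than in separate peaks. WT and Delta shared 25.02 Mb. Of the 5.39 Mb covered in WT alone, 3.44 Mb lay in peaks that had a Delta counterpart, and of the 5.97 Mb covered in Delta alone, 4.12 Mb lay in peaks with a WT counterpart. Among 7328 pairs in which 1 WT peak met 1 Delta peak, 3784 were longer in Delta and 3536 longer in WT, and the median difference was 19.0 bp, with quartiles of −409 and 489 bp. At least a 2-fold difference in length was seen in 566 pairs longer in Delta and 604 longer in WT. Pairs longer in either genotype were thus about equally many. A Delta peak met 2 or more WT peaks in 374 cases (3.44% of Delta peaks), and a WT peak met 2 or more Delta peaks in 250 (2.20%).

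The 5 longest peaks of each list were found at the same loci. The longest lay over the *Hoxc* cluster, with 142467 bp in WT (chr15:102732312-102874778) and 142959 bp in Delta (chr15:102735441-102878399). The *Hoxa* cluster lay in a single peak of 112597 bp in WT (chr6:52109933-52222529) and 116140 bp in Delta (chr6:52110659-52226798). At the *Hoxd* cluster, with the homeobox gene *Evx2* at its edge, the peak was 70091 bp in WT and 113628 bp in Delta, where it took in *Hoxd4*. Of these Delta bases 108760 were also covered in WT, where *Hoxd4* lay in a separate peak of 37614 bp, so the longer peak was mainly a joining of peaks. At the *Hoxb* cluster it was 99404 bp and 108486 bp. The peak over *Zic1* and *Zic4*, neural transcription factor genes, was 69842 bp and 69182 bp. Among peaks without a counterpart the longest Delta peak that also reached a −log10 q of 3 was 6310 bp long and lay 991 bp from the nearest TSS, that of *Gadd45g*, a stress and cell cycle gene. A Delta peak of 3655 bp lay inside *Gata2*, the haematopoietic GATA factor, 4923 bp from the nearest TSS. A further pair of Delta peaks, of 3996 bp and 2954 bp, lay over *Gm20388*, with a −log10 q of 2.53 and 5.19, so the longer was below 3. They were 6787 bp and 2707 bp from a TSS of *Gse1*, which encodes a protein of corepressor complexes. In WT the longest was a peak of 9086 bp within *Arhgap26*.

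Promoters held about as large a share of the peaks in both lists. Within 2500 bp of a TSS lay 66.1% of WT peaks (65.3 to 67.0) and 65.0% of Delta peaks (64.1 to 65.9), which carried 76.8% and 75.3% of the covered bases. Peaks elsewhere in genes made up 12.01% and 12.54%, and peaks between genes 21.8% and 22.4%. Peaks between genes more often had no counterpart, 35.9% in WT and 38.3% in Delta, than peaks at promoters, 22.2% and 17.9%. The covered length was higher in Delta on 17 of the 20 chromosomes with peaks, between 0.963 times WT on chromosome 18 and 1.08 times on chromosome 8, while the number of peaks was lower in Delta on 17 of 20.

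Peaks without a counterpart fell into kinds of sequence that differed by location. Between genes they had a median CpG ratio, observed over expected, of 0.207 in WT and 0.199 in Delta, against 0.324 and 0.321 for peaks between genes with a counterpart. At promoters it was 0.732 and 0.707 for peaks without a counterpart, and no value was computed for promoter peaks with one. For H3K27me3 peaks that lay on H3K27ac it was 0.835 and 0.845. Genes that lost or gained the peak had CpG-rich promoters like those that kept it: the median count in the 200 bases before the 5′ end was 14 for lost, 14 for gained and 13 for kept genes, against 3 for genes without H3K27me3. The E-box that SCL complexes favour, searched as CAGNTG on both strands, stood in these 200 bases in 29.2% of lost and 30.3% of gained genes, against 35.01% of all genes.

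At the level of genes, 7791 were called in WT and 7313 in Delta, of which 6216 in both. Of all 22359 genes 1575 (7.04%) had lost the peak at the TSS, meaning a WT peak and no Delta peak, and 1097 (4.91%) had gained it. Neighbouring genes can share a peak: 430 lost genes (27.3%) and 249 gained genes (22.7%) shared theirs with another gene of the same class. These calls rested on weak peaks, with a median −log10 q of 2.48 at lost and 2.62 at gained genes. When the peak had to reach a −log10 q of 3, 500 genes (2.24%) were lost and 379 (1.7%) gained.

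Lost and gained genes carried H3K27ac more often and H2AK119ub less often than genes that kept the mark, while H3K4me3 was about as frequent in all 3 classes. H3K4me3 was present in WT at 95.05% of lost, 94.2% of gained and 92.3% of kept genes. H3K27ac was present in WT at 55.6% of lost and 45.5% of gained genes, against 23.8% of kept genes, and in Delta at 55.6%, 56.6% and 26.8%. H2AK119ub showed the opposite order, with 2.92% of lost, 3.37% of gained and 29.1% of kept genes in WT. The lists of a genotype share 1 input library, so marks of the same genotype are not independent measurements.

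Without the 5864 genes that carried H3K27ac, 546 of 16495 genes lost and 419 gained the peak, and their summed coverage was nearly equal, 15073610 bp in WT and 15071426 bp in Delta. Among the genes with H3K27ac, 1029 lost and 678 gained it, and the coverage was 2692427 bp in WT against 2373123 bp in Delta. More of the excess of lost over gained calls thus lay at promoters that also carried the active mark, whose part in the result was not tested. Of the 79 ribosomal protein genes, 13 lost the peak (16.5%, against 17.55% of the genes with H3K27ac and 7.04% of all genes) and 4 gained it. Counted only among genes called in WT, 13 of 67 ribosomal protein genes lost it, where 1029 of 2851 genes with H3K27ac and 1575 of 7791 of all genes did. *Rpl39*, *Rpl10* and *Rps4x*, among the lost, had no H3K27ac in either genotype. The coverage of the list was 60420 bp in WT and 39129 bp in Delta. *Rpl15* and *Rps2* changed most in bp, from 1629 to 416 bp and from 1656 to 461 bp.

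The lost genes with the widest WT coverage, among those with a −log10 q of at least 3, were led by *Grip2*, which encodes a scaffold of glutamate receptors and had 3070 bp covered in WT. *Mme*, the membrane protease neprilysin, had 2783 bp, and the cadherin gene *Cdh20* had 2749 bp. Delta still had 2543 bp covered at *Cdh20* outside the TSS window, over the gene and its flanks of 2500 bp. *Efna1*, an ephrin ligand, had 2728 bp, and its H3K4me3 went from 2277 bp in WT to 3904 bp in Delta. The others were *Tmem181b-ps*, *Nudt18*, *Tnfrsf19*, *Inpp5f* and the divergent pair *Enoph1* and *Hnrpdl*, which share a peak, with 2019 to 2319 bp.

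Among the gained genes whose peak reached a −log10 q of 3, the small GTPase gene *Rnd2* had the widest Delta coverage, 4690 bp. It shares its peak with *Vat1*, at 2745 bp, and H3K4me3 at *Rnd2* was 4086 bp in WT and 2359 bp in Delta. *Ncoa2*, a coactivator of nuclear receptors, had 3255 bp. *Zfp385a* had 2844 bp and *Il10rb*, a receptor chain for interleukins, 2805 bp. *Plvap*, which encodes the diaphragm protein of endothelial fenestrae, had 2381 bp with a −log10 q of 8.95, although WT also had 3116 bp over the body of the gene. *Slc29a1*, a nucleoside transporter gene, had 2001 bp, and its H3K4me3 was 2684 bp in WT against 947 bp in Delta. The remaining entries, *AU023871* and 2 entries named *Ly6g6c*, share a peak and had 2288 to 2505 bp.

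The covered length within the TSS windows was then compared gene by gene. A window is 5001 bp wide for a single TSS, and overlapping windows of a gene were joined. Among the 6216 genes called in both genotypes, 491 (7.9%) had at least 2-fold less coverage in Delta and 350 (5.63%) at least 2-fold more. Without genes with H3K27ac these counts were 203 and 197. Since 2-fold changes are easily reached by short peaks, a change of at least 1000 bp was also counted, a limit chosen after the values were seen. Over all genes, 645 (2.88%) had at least 1000 bp less and 602 (2.69%) at least 1000 bp more in Delta. Of the genes called in either genotype these were 7.26% and 6.77%. Among called genes without H3K27ac, with a median WT coverage of 2598 bp, the shares were 8.14% and 8.60%. Among those with it, with a median of 498 bp, they were 5.92% and 3.995%. A gene with less than 1000 bp in WT cannot fall by 1000 bp. The median difference over the 8888 genes called in either genotype was 0 bp.

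Of the 10 genes called in both genotypes with the largest gains of coverage in Delta, *Hhex* and *Tal1* belong to the list of blood transcription factors and *Esam* to that of endothelial genes. *Esam*, an adhesion molecule of endothelial cells and blood progenitors, had 1424 bp in WT and 6362 bp in Delta, while its H3K4me3 was 4058 bp and 1487 bp. *Stat5b*, a transducer of cytokine signals, had 458 bp and 5001 bp, the whole window around its first TSS, within a Delta peak of 7054 bp. *Runx1t1*, which encodes the corepressor ETO, had 3932 bp and 8186 bp. *Hhex*, a homeobox gene of blood, endothelial and endoderm progenitors, had 4742 bp and 8187 bp, and its H3K27ac was 545 bp in WT and 0 in Delta. *Tal1* itself had 1800 bp and 4785 bp, and its H3K27ac was 1833 bp and 0. *Tal1* is the gene that carries the deletion and the reporter, so reads there come from an altered locus in both lines. The other genes with the largest gains were *Pde4dip* (1916 bp and 7478 bp), *Grin3b*, *Cplx2* and *L3mbtl1*, which were 3012 to 3042 bp longer in Delta, and *Glg1* (313 bp and 3255 bp).

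The 10 largest reductions were ranked among genes called in both genotypes, so lost genes such as *Evx1* are not among them. None of these 10 was at a gene of the blood, endothelial, cardiac transcription factor or primitive streak lists. *Tpbg*, the trophoblast glycoprotein that modulates Wnt signalling, had 5205 bp in WT against 1469 bp in Delta. The receptor phosphatase gene *Ptprj* had 4004 bp and 330 bp. *Meis2*, a homeobox gene of heart, limb and neural development, had 5949 bp and 2380 bp, and the ephrin gene *Efna5* had 3975 bp and 738 bp, with an H3K27ac peak of 1275 bp in Delta only. *Cacnb3*, a calcium channel subunit gene, had 7545 bp and 3920 bp, *Grid2ip* 11802 bp and 8482 bp, *Mtus2* 7155 bp and 4112 bp, and *Kctd1* 8700 bp and 5658 bp. Of the clustered protocadherin entries, *Pcdhgc5* had 28709 bp and 25483 bp and *Pcdha11* 38479 bp and 35401 bp.

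**Figure D2:**
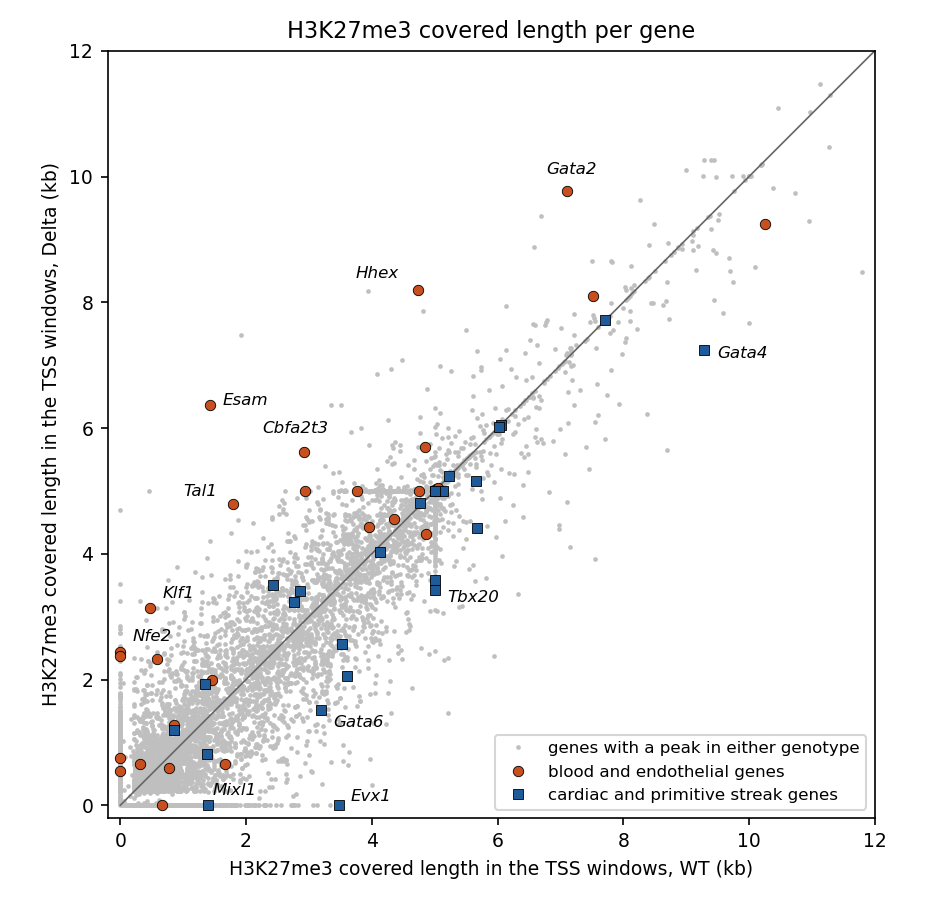
Each point is a gene with an H3K27me3 peak within 2500 bp of a TSS in at least 1 genotype, placed by the covered length of its TSS windows in WT (x axis, kb) and in Delta (y axis, kb). Axes end at 12 kb, orange circles are the fixed lists of blood transcription factor and endothelial genes, blue squares those of cardiac transcription factor and primitive streak genes, and the line marks equal coverage; *Esam*, *Hhex*, *Tal1* and *Gata2* lie above it and *Gata4*, *Gata6*, *Tbx20* and *Evx1* below it.

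Over all genes the summed coverage of the TSS windows was 17766037 bp in WT against 17444549 bp in Delta, and the gene lists were read beside this. Blood transcription factor genes had more bases covered in Delta. Of 23 genes 19 were called in either genotype, of which 13 had more bases covered in Delta and 5 had fewer, where 43.5% of all called genes had more and 49.65% fewer. At least 1000 bp more was seen at 8 (42.1% of those called, against 6.77% over all called genes) and at least 1000 bp less at 2 (10.5%, against 7.26%). The summed coverage was 62808 bp in WT against 82690 bp in Delta, and the median difference was 579 bp. Of these 23 genes 15 had an H3K27ac peak in at least 1 genotype.

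The genes behind this count are central to blood formation. *Gata2* had 7106 bp in WT and 9774 bp in Delta. *Cbfa2t3*, which encodes the SCL partner ETO2, had 2922 bp and 5623 bp. In WT it held a pair of peaks, of 1482 bp and 1995 bp, and in Delta a single peak of 10930 bp with a −log10 q of 22.4, while its H3K27ac was 593 bp in WT and 0 in Delta. The ETS factor gene *Fli1* had 2942 bp and 5001 bp, the whole window, and H3K27ac of 820 bp in WT only. *Klf1*, *Gfi1b* and *Nfe2*, which encode factors of the erythroid and megakaryocyte lineages, were also longer in Delta, unlike *Zfpm1* and *Gata1* of these lineages, given below. *Klf1* had 473 bp and 3130 bp, and *Gfi1b* 577 bp and 2328 bp, with H3K4me3 of 1430 bp in WT and none in Delta. *Nfe2* had no H3K27me3 in WT and 2442 bp in Delta, where its H3K4me3 (2075 bp in WT) and H3K27ac (1470 bp in WT) were both at 0, and its Delta peak was weak, with a −log10 q of 2.70.

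Not all blood genes went this way. *Meis1* had 10246 bp in WT against 9241 bp in Delta, the GATA cofactor gene *Zfpm1* 1662 bp and 661 bp, and *Etv6* 664 bp and none. *Myb* was covered over its whole window in both, and *Gata1*, *Etv2*, *Ldb1* and *Sfpi1*, the gene of PU.1, had no peak in either. *Runx1* was nearly unchanged in length, 4351 bp and 4548 bp, while the highest −log10 q of its peaks was 4.74 in WT and 15.5 in Delta.

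Endothelial genes had the same direction where they were called. Of 20 genes 7 were called in WT and 10 in Delta. *Plvap*, *Nrp1* and *Ramp2* gained the peak (15.0% of the list, against 4.91% of all genes), 8 of the 10 had more bases in Delta (43.5% over all called genes), and none had fewer. The peaks at *Nrp1* and *Ramp2* were weak, with a −log10 q of 2.23 and 1.75, and *Nrp1* also had an H3K27ac peak of 910 bp in Delta only. The sums were 24279 bp and 35206 bp. The endothelial transcription factor gene *Sox7* had 3771 bp in WT against 5001 bp in Delta, and *Cldn5*, a tight junction gene, 3960 bp and 4429 bp. *Cdh5*, *Pecam1*, *Tek*, *Tie1* and *Egfl7* had no H3K27me3 peak at the TSS in either library.

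Cardiac transcription factor genes had the opposite direction in summed coverage and in changes of at least 1000 bp. All 18 genes were called in both genotypes. At least 1000 bp less in Delta was seen at 6 (33.3% of those called, against 7.26% over all called genes). At least 1000 bp more was seen at 1 (5.56%, against 6.77%). Fewer bases were covered in Delta at 7 (38.9%, against 49.65%) and more at 4 (22.2%, against 43.5%). The median difference was 0 bp. The summed coverage was 80326 bp in WT and 73143 bp in Delta. *Gata4* had 9291 bp and 7241 bp, since a WT domain of 31965 bp was split in Delta into a peak of 24976 bp and a peak of 2182 bp. *Gata6* had 3189 bp and 1510 bp, *Tbx20* 5001 bp and 3428 bp, and *Mesp1*, a factor of early cardiac mesoderm, 3598 bp and 2062 bp. *Hand1* had 5672 bp and 4416 bp and *Smarcd3*, a chromatin remodelling subunit of heart development, 5001 bp and 3580 bp. H3K27ac was found in Delta only at *Gata6* (599 bp), *Tbx20* (164 bp) and *Hand1* (1291 bp). *Mef2c* had 2422 bp and 3506 bp, and *Tbx3*, *Hopx* and *Myocd* were also longer in Delta. The windows of 7 genes, among them *Nkx2-5*, *Tbx5*, *Isl1* and *Hand2*, were covered in full in both. Those of *Tbx20*, *Smarcd3* and *Hand1* were covered in full in WT. Windows that are full in WT can only stay equal or fall in this count. The median WT coverage of called genes was 5001 bp in this list and 2922 bp in the blood list. The 2 lists thus had unlike room to rise. Genes of the contractile apparatus were mostly without the mark: 5 of 17 entries were called, with 8599 bp and 11476 bp in sum and *Myl7* at 2225 bp and 3652 bp.

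**Figure D3:**
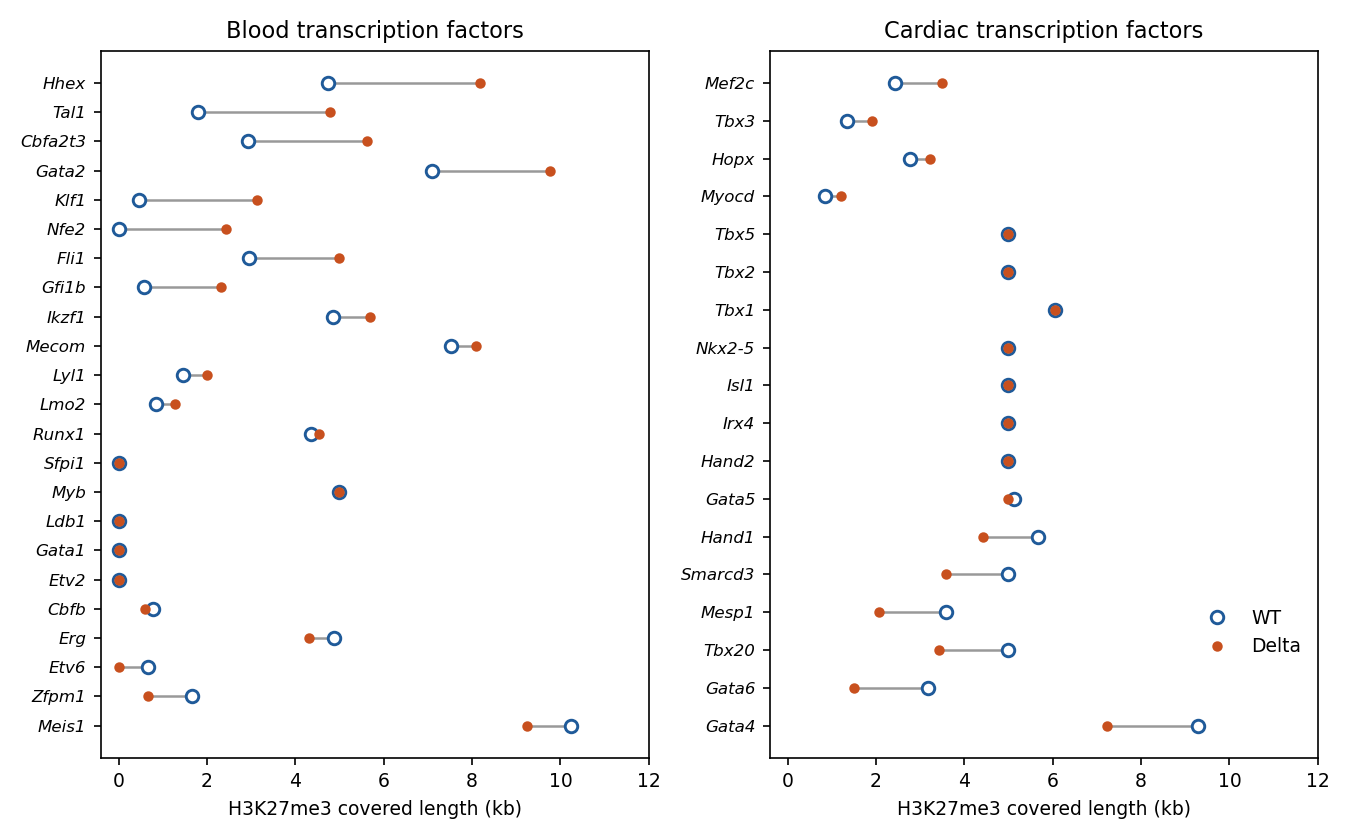
The H3K27me3 covered length of the TSS windows (x axis, kb) in WT (open blue circles) and Delta (filled orange circles) is given for each gene of the blood (left) and cardiac (right) transcription factor lists, ordered by the difference, with a grey line joining the 2 values. In the blood list 13 genes were longer and 5 shorter in Delta, and in the cardiac list 4 were longer and 7 shorter.

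Primitive streak and posterior genes are used as mesoderm forms. Of 15 genes 14 were called in WT (93.3%, against 34.85% of all genes) and 12 in Delta (80.0%, against 32.7%). The peak was lost at 2 (13.3% of the list, against 7.04% of all genes). Only a gene called in WT can lose it. On that base 2 of 14 lost it here, and 1575 of 7791 did over all genes, so the list did not stand out for lost peaks. Of the 14 called, 6 had fewer bases in Delta, 2 had more and 6 were equal. The sums were 61159 bp and 54740 bp, and most of the difference lay at *Evx1* and *Mixl1*. *Evx1*, a homeobox gene of the posterior streak, had 3471 bp in WT and no peak in Delta, with H3K4me3 of 3253 bp and 5055 bp. The WT peak of *Evx1* had a −log10 q of 2.98, just under the limit of 3. *Mixl1* had 1397 bp in WT and none in Delta, and an H3K27ac peak of 406 bp in Delta only. *T*, or Brachyury, had 3533 bp and 2562 bp. *Cdx4* was higher in Delta, 2865 bp and 3412 bp.

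The remaining lists are described by their sums and by the members that differed most. Neural transcription factor genes had 211540 bp in WT against 211836 bp in Delta, and *Hox* genes 275193 bp and 276765 bp, but the windows of 26 of 29 and 35 of 40 of them were covered in full in both, where a domain can grow only outside the counted windows. Over whole genes with 2500 bp on each side, coverage was 365.4 kb and 365.1 kb for the neural and 531.8 kb and 536.1 kb for the *Hox* genes. Paraxial mesoderm and somite genes had 84124 bp and 87168 bp, with *Mesp2* at 1667 bp and 3603 bp. Endoderm genes had 45802 bp and 47447 bp, pluripotency genes 42542 bp and 41800 bp. Among signalling genes, Wnt ligand genes had 88737 bp and 85177 bp, FGF ligand genes 72064 bp and 72820 bp, and BMP and GDF ligand genes 49894 bp and 46581 bp. *Bmp7* and *Bmp4* had 4903 and 2260 bp in WT and 2410 and 1271 bp in Delta. *Wnt2b* had 3939 bp and 2527 bp, and *Wnt5a* 6726 bp and 5764 bp. Of the Iroquois genes *Irx3* had 5001 bp and 3654 bp and its neighbour *Irx5* 3976 bp and 5001 bp. Cyclin-dependent kinase inhibitor genes had 27471 bp and 26005 bp, of which *Cdkn1a* fell short by the most, with 2465 bp and 921 bp. Clustered protocadherin genes had 126265 bp and 116677 bp. Globin genes were without the mark apart from *Hba-x*, with 2800 bp and 3547 bp.

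Genes of the Polycomb machinery itself carried the mark in part. Of 30 subunit genes 21 were called in WT and 19 in Delta, with 44867 bp and 42943 bp covered. *Ezh2*, *Phc3* and *Pcgf6* lost a weak peak of 297 to 622 bp, and *Jarid2*, a PRC2 cofactor, had 1133 bp in Delta only, with a −log10 q of 2.41. *Yaf2*, the relative of RYBP, had 387 bp in WT against 1769 bp in Delta, and *Aebp2* 1977 bp and 789 bp. *Rybp* had no peak in either genotype. *Bmi1* and *Phf19* lay in strong domains in both lists.

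**Figure D4:**
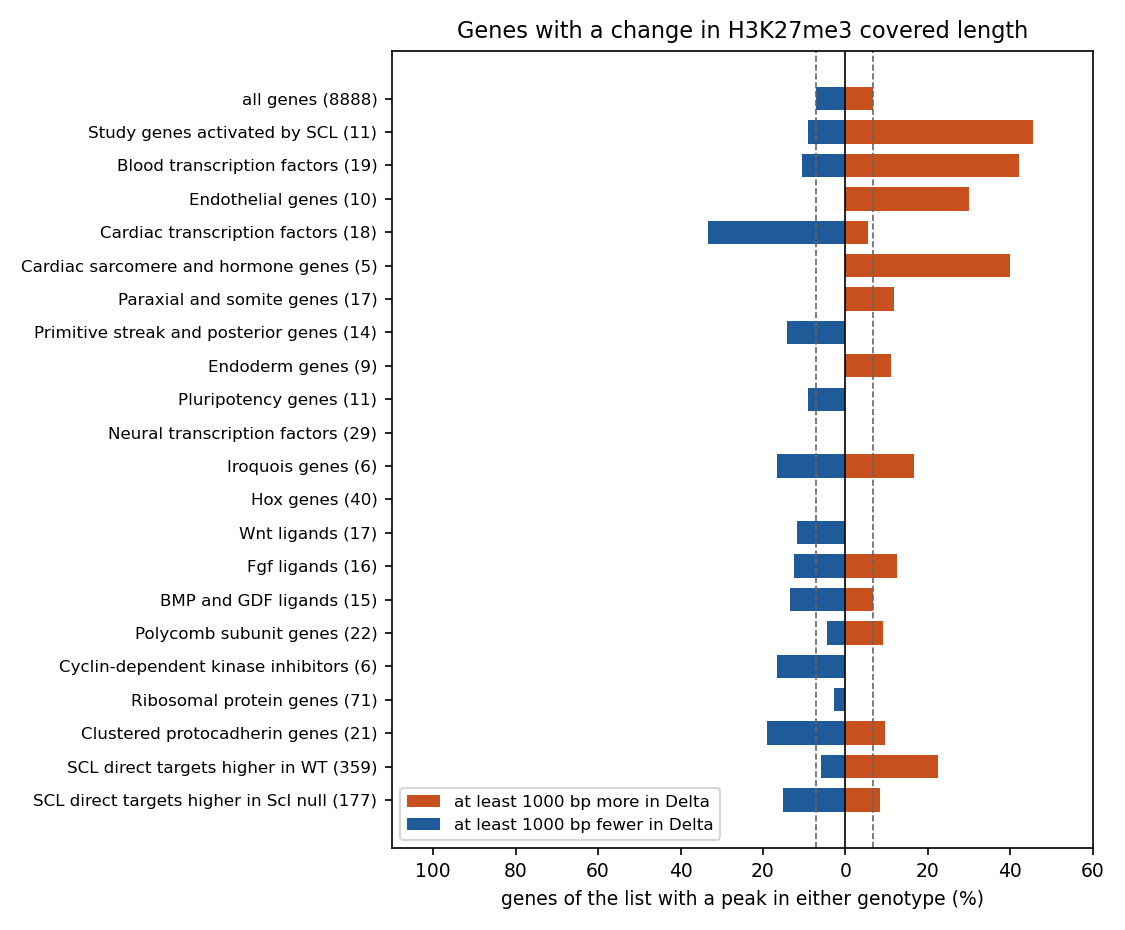
For each gene list with at least 5 genes called in either genotype (number in brackets), bars give the percentage of those genes with at least 1000 bp more (orange, right) or at least 1000 bp less (blue, left) H3K27me3 coverage in Delta, and dashed lines mark all called genes, 6.77% and 7.26%. Blood transcription factor genes reach 42.1% on the right and cardiac transcription factor genes 33.3% on the left, while *Hox* and neural genes show neither.

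Genes that the study discussed were looked at next. They were picked by its authors partly from these libraries and overlap the lists above, so their direction is not independent evidence. Of the genes activated by SCL, 13 were matched and 11 called in both genotypes, 8 with more and 1 with fewer bases in Delta, and 35844 bp and 48627 bp covered in sum. Among those not given above, *Gse1* had 2955 bp in WT and 4879 bp in Delta, *Ikzf1* 4846 bp and 5700 bp, and *Pcgf5* 1655 bp and 1699 bp, while *Zfpm2* had 5001 bp in both and *Ikzf2* none. Of the 5 genes repressed by SCL 4 were called, *Gata4*, *Gata6*, *Mesp1* and *Irx3*, and all 4 had at least 1000 bp less in Delta, in sum 21079 bp in WT against 14467 bp in Delta.

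A broader view came from genes bound by SCL whose RNA level differs with SCL. These lists were made by the authors from other samples, SCL binding and RNA of FLK1-positive cells with and without SCL from day 3.5 EBs, and so did not use the H3K27me3 libraries. Of the targets with more RNA in WT, 486 genes were matched and 359 called in either genotype. At least 1000 bp more H3K27me3 in Delta was seen at 81 of them (22.6% of those called, against 6.77% over all called genes). At least 1000 bp less was seen at 21 (5.85%, against 7.26%). Among called genes without H3K27ac these shares were 8.60% and 8.14%. The median WT coverage was 2255 bp at the called targets and 1158.5 bp at all called genes. More bases in Delta were covered at 212 of the 359 and fewer at 116, where 3864 of all 8888 called genes had more and 4413 fewer, with a median difference of 197 bp. Their summed coverage was 918801 bp in WT and 1053861 bp in Delta, a ratio of 1.15, and without genes with H3K27ac the ratio was 1.14. The 2-fold count among genes called in both genotypes pointed the same way. At least 2-fold longer were 35 genes (11.7%, against 5.63% over all genes). At least 2-fold shorter were 9 (3.01%, against 7.9%). Most of the 359, 299 genes, had a peak in both genotypes. The peak was gained at 32 (6.58% of the list, against 4.91% of all genes) and lost at 28 (5.76%, against 7.04%). These shares have unlike bases, since 67.3% of the list was called in WT, against 34.85% of all genes. Only a gene called in WT can lose a peak, and only the others can gain it. Of the targets called in WT 28 of 327 lost the peak, where 1575 of 7791 did over all genes.

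Targets with more RNA in Scl null cells had slightly fewer bases covered in Delta in sum, while their shares of longer and shorter genes were near those of all genes. Of 249 matched genes 177 were called. At least 1000 bp more in Delta was seen at 15 (8.48%, against 6.77% over all called genes). At least 1000 bp less was seen at 27 (15.3%, against 7.26%). More bases were covered at 74 (41.8%, against 43.5%) and fewer at 90 (50.85%, against 49.65%). The coverage of the list was 527528 bp in WT against 502116 bp in Delta, a ratio of 0.952, where that over all genes was 0.982. The median difference was −19 bp. At least 2-fold longer were 11 genes and at least 2-fold shorter 11. Each was 7.14% of those called in both genotypes, against 5.63% longer and 7.9% shorter over all genes. The difference between the lists was not tested.

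The position of the added bases was read from the share of genes covered at each distance from the 5′ end. At the targets with more RNA in WT, the share covered peaked 400 bp downstream, at 49.8% in WT and 52.3% in Delta. At 2500 bp downstream it was 19.8% and 25.5%, and at 5000 bp upstream 3.498% and 5.35%. The added coverage thus lay on both flanks of the promoter as well as at its centre. At the targets with more RNA in Scl null cells the share at the 5′ end itself was 42.6% in WT and 38.2% in Delta, and at 2500 bp downstream 25.7% and 24.9%.

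**Figure D5:**
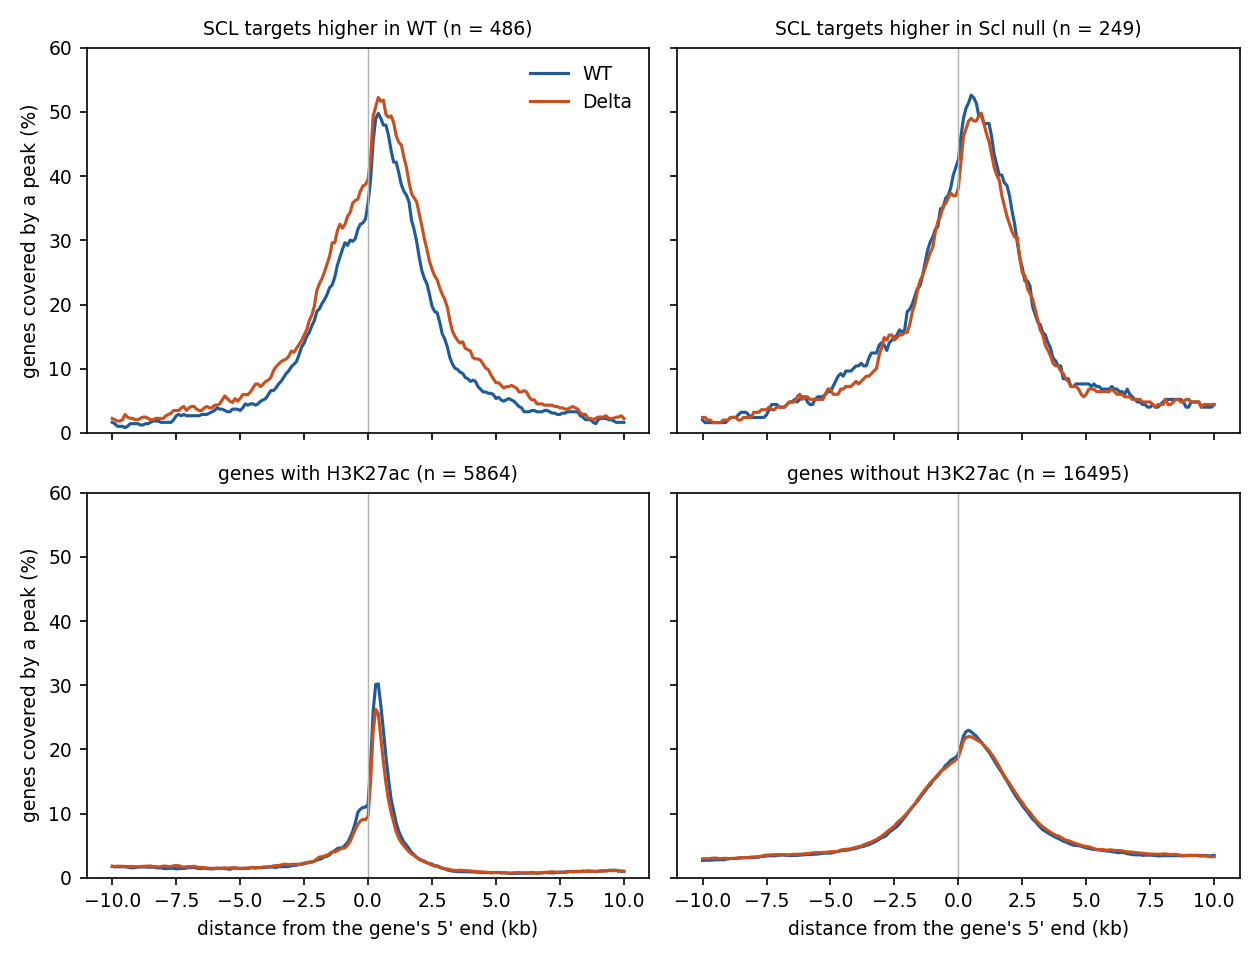
Lines give the percentage of genes covered by an H3K27me3 peak in WT (blue) and Delta (orange) at each distance from the annotated 5′ end of the gene (x axis, kb, negative values upstream), for 4 groups of genes. Targets of SCL with more RNA in WT are covered more often in Delta on both sides of the 5′ end, and genes with H3K27ac show a narrow summit at 400 bp of 30.2% in WT and 25.6% in Delta, beside the wide profile of genes without it.

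The other marks were read at the genes with at least 1000 bp more or less H3K27me3 in Delta. H3K27ac was present at 16.4% of these 602 genes in WT and 19.3% in Delta, with 25 genes that had it in WT only and 42 in Delta only. Among the 645 genes with at least 1000 bp less H3K27me3, it was present at 25.3% in WT and 29.6% in Delta, with 18 in WT only and 46 in Delta only. Over all genes H3K27ac was present at 19.9% in WT and 22.8% in Delta, with 768 in WT only and 1424 in Delta only. H3K4me3 was shorter in Delta at 66.5% of the genes with more H3K27me3 that carried it, 63.3% of those with less and 66.8% of all genes. The lower H3K27ac given above for *Tal1*, *Hhex*, *Fli1*, *Cbfa2t3* and *Nfe2* in Delta was therefore not matched by these counts over all genes with wider H3K27me3. H2AK119ub was present in WT at 23.8% of the genes with more and 24.7% of the genes with less H3K27me3, and in Delta at 13.5% and 9.92%.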

How the data were processed

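ChIP-Rx, a ChIP-seq protocol with spike-in chromatin, was applied by the authors to mCherry-positive cells mixed 2:1 with *Drosophila* cells. Per the study's methods, reads were mapped with Bowtie to unique sites, duplicates were removed with SAMtools, and broad peaks were called in each library against the input of the same genotype (MACS2 2.0.10 per the submitters' processing notes, broad cutoff 0.05). Spike-in scaling was described for tag densities and not for peak calls, so the peak lists cannot show a genome-wide change in level. From the scaled signal the study reported lower H3K27me3 in Delta around TSSs genome-wide, and a western blot gave the same direction. It described the fall as greater at direct targets that SCL represses than at those it activates. The wider peaks in Delta given here are therefore not a measured rise of the mark. A deeper library can give more and longer peaks. The study's reporting summary lists somewhat fewer mapped reads for the Delta H3K27me3 library than for that of WT. Read depth was not used here, and its part in the results was not tested.

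Per the labels and file format, each deposited peak has a score, a fold enrichment over background (a ratio) and the −log10 of p and q as computed by the authors. The positions, lengths and −log10 q were used here, fold enrichment only as a filter. Coordinates are mm9, 1-based. Genes are 22359 protein-coding genes of GENCODE M1 with a protein-coding transcript, on the same build. A gene is called when a peak comes within 2500 bp of any protein-coding TSS, and the covered length is the number of bases of these windows under peaks. Peaks overlap by at least 1 bp. Promoter sequences are from the NCBIM37 (mm9) genome. No test was made, because each group has 1 library. Overlaps were tested on simulated data and checked against bedtools 2.31.1.

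The comparison, its members, the 24 gene lists and the rule for named genes were chosen with earlier results of these data known. Named are the genes the study discussed, the 10 lost and 10 gained genes with the widest coverage whose peak reached a −log10 q of 3, the 10 largest falls and rises among genes called in both, up to 5 genes per list with the largest change, and genes at the 5 longest peaks of each list. The other list members named, the *Gata2*, *Gse1* and *Arhgap26* peaks among them, were chosen after their values were seen. *Gfi1* and *Sox1* were not matched and are not analysed here. Some list members and promoter sequences are not reported here.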

Additional observations from a re-analysis of the deposited data

How the results depend on the processing

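No paired analysis was possible because each genotype had 1 library, and for the same reason no replicate could be left out. The ratio of peak numbers, Delta over WT, was 0.959 and reversed to 1.025 with a −log10 q of at least 3 in both lists. At a fold enrichment of 3 or more it was 0.9925. The ratio of covered length stayed between 1.012 and 1.039 in its 3 alternatives. With a −log10 q of at least 3 in both lists, 86.2% of WT and 83.0% of Delta covered bases were shared. Peaks without a counterpart were 23.03% of WT and 21.0% of Delta peaks when a peak within 1000 bp counted, and 9.64% and 8.88% with a −log10 q of at least 3 for the peak counted. Lost and gained genes numbered 500 and 379 where the peak reached a −log10 q of 3 and the other list had no peak at all, and 546 and 419 without genes with H3K27ac (added after the data were seen). Under that strict call the targets with more RNA in WT lost 1.44% and gained 2.06%, and those with more RNA in Scl null cells lost 1.205% and gained 0.803%. Genes with a 2-fold lower or higher covered length numbered 909 and 777 at 1.5-fold, 157 and 144 with a −log10 q of at least 3 in both lists, and 203 and 197 without genes with H3K27ac. By midpoint, 62.8% of WT peaks lay at promoters, 13.6% in genes and 23.6% between genes, and 61.2%, 14.4% and 24.4% of Delta peaks. Lost genes outnumbered gained genes in each alternative run. The ratio of covered bases kept its direction for the blood list (1.17 to 1.51), the cardiac list (0.836 to 0.950) and both lists of SCL targets in 3 added alternatives each. The causes of these shifts were not tested. Small calls depend on the caller's threshold, and counting intervals do not include variation between cultures.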
